A study of Mus musculus with 5 samples.

Results

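Elastic fibre genes were followed through single-cell RNA sequencing of mouse skin in which the kinase IKKβ had been deleted in a fibroblast lineage. The set was taken by symbol and held 10 of the 31053 genes in the count matrices: Eln, Fbn1, Mfap2, Mfap4, Mfap5, Fbln1, Fbln2, Fbln5, Lox and Loxl1. Elastic fibres give skin its recoil. They are laid down outside the cell by fibroblasts and by the smooth muscle of vessel walls, on a scaffold of fibrillin microfibrils onto which tropoelastin, the elastin monomer, is deposited and then cross-linked by copper-dependent lysyl oxidases. Microfibrils also store latent TGF-beta, so the same genes bear on growth factor supply.

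Ventral skin was taken at postnatal day 28 from mice of the C57BL/6J strain for all libraries, digested with enzymes and sorted to leave out debris, aggregates and dead cells that took up DAPI. The 2 WT libraries carried no engineered allele in the labels, and the 3 Ikkb_cKO libraries carried Prx1Cre with both Ikkb alleles floxed (Prx1Cre+Ikkbf/f). Each library was a pool of 2 mice, so differences between single animals are not seen. The title of the series puts the question in Prx1+ fibroblasts, NF-kB and atopic dermatitis. Prx1Cre is driven by a Prrx1 enhancer that is active in limb and body wall mesenchyme, and IKKβ (gene Ikbkb) frees NF-kB from its inhibitors. No library with Prx1Cre and unfloxed Ikkb was analysed here, so effects of Cre and of the deletion cannot be told apart.

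Of 11084 cell barcodes, 10390 were kept and 5423 were fibroblast-like, a class named from its marker genes. All 40 fibroblast markers were detected in fibroblast-like cells of both WT libraries, and at most 1 was at 0 in an Ikkb_cKO library. WT libraries held 1720 and 1848 fibroblast-like cells with medians of 4712.5 and 5237 UMIs (unique molecules counted) per cell. Ikkb_cKO libraries 1, 2 and 3 held 520, 481 and 854 such cells with medians of 1541, 1747 and 2450 UMIs. Total UMI counts per library ran from 2163166 to 16773096, and pairs of libraries shared 0 to 17 barcodes. The median share of mitochondrial UMIs in a fibroblast-like cell was 2.09% and 2.13% in WT and 3.23% to 3.48% in Ikkb_cKO. Ikkb_cKO library 3 stood apart. Its fibroblast-like counts differed from those of libraries 1 and 2 by a chi-square of 14.3 and 15.0 per degree of freedom. That value was 1.46 between libraries 1 and 2 and 4.72 between the WT libraries. It grows with depth, so these last 2 values do not compare the likeness of the pairs. Fibroblast-like UMIs numbered 983707 and 1068938 in Ikkb_cKO libraries 1 and 2, and 9693937 and 11342783 in WT. Nothing in the labels ties the replicates to cultures, litters or days beyond the pools, so p-values measure the spread between these libraries.

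The targeted gene itself, Ikbkb, stood at 15.2 and 18.2 normalised CPM (UMIs of the gene per 1000000 UMIs of the cells) in WT fibroblast-like cells and at 16.02, 21.0 and 15.6 in Ikkb_cKO. The 3′ tags count the end of a transcript and the labels do not name the deleted exons, so this level checks neither the deletion nor the labels.

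The genes are spread over the genome (GRCm38, GENCODE). Eln, which encodes tropoelastin, lies on chromosome 5 at 134702593 to 134747323. Fbn1, for fibrillin-1, the backbone of the microfibril, lies on chromosome 2 at 125300594 to 125507993. Mfap2 and Mfap5 encode the microfibril glycoproteins that bind fibrillin and lie on chromosome 4 at 141010418 to 141015984 and on chromosome 6 at 122505845 to 122529290. Mfap4, for a fibrinogen-domain protein of the microfibril, lies on chromosome 11 at 61485431 to 61488900. The fibulins are matrix proteins that link tropoelastin to microfibrils and basement membranes: Fbln1 lies on chromosome 15 at 85205949 to 85286535, Fbln2 on chromosome 6 at 91212455 to 91272540 and Fbln5 on chromosome 12 at 101746565 to 101819055. Loxl1, a lysyl oxidase that acts on elastin, lies on chromosome 9 at 58287738 to 58313186, and Lox encodes the lysyl oxidase of both elastin and collagen.

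The RefSeq promoter table of GRCm38.p6 held entries for 5 of the 10 genes (Fbn1, Mfap2, Fbln1, Fbln2 and Fbln5). Fbln2 differed between genotypes in a test below, but its window of 250 bases lay wholly in annotated exon and is not printed. The upstream sequences of Mfap2 and Fbln1, which also differed between genotypes in a test below, are shown. Each runs 5′ to 3′ on the plus strand, in lower case, ends where the first annotated exon begins, and has the letters CAGACA or their reverse complement TGTCTG, a Smad-type motif, in capitals.
Mfap2, chr4:141010174-141010417: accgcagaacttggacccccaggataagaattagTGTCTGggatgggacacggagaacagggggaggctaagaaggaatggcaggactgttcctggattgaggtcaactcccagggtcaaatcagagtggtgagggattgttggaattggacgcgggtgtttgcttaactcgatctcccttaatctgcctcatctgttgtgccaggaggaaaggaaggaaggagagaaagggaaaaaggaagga
Fbln1, chr15:85205699-85205948: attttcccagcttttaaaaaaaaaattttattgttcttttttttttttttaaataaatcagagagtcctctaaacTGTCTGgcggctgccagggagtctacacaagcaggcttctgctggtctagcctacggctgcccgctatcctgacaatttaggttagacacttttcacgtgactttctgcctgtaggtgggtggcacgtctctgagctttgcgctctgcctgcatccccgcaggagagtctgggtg
Each sequence held 1 such match. Over all 32851 promoter windows of 250 bases, read on both strands, 17.1% held CAGACA. The letters GGGA and CC with any 4 bases between them, a common form of the NF-kB motif, were in 17.6% of all windows, TATAAA in 12.4% and GGGCGG in 32.7%. None of these was in the printed sequences. Each gene has a second promoter entry further downstream, not printed because it overlaps annotated exon by 96 bases (Mfap2) and 59 bases (Fbln1), and these windows did hold matches. The second Mfap2 window (141010431 to 141010680) held 1 match to the NF-kB form and 2 to GGGCGG. The second Fbln1 window (85205758 to 85206007) held 2 overlapping matches to the NF-kB form and 1 to GGGCGG. Neither of these windows held TATAAA. These are matches of letters only.

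Fibroblast-like cells were the main source of all 10 transcripts. In WT they held from 95.2% (Fbln5, mean of 2 libraries) to 99.1% (Mfap4) of a gene's UMIs over all kept cells. In Ikkb_cKO the means over 3 libraries ran from 94.5% (Fbln1) to 99.0% (Lox). Fewer cells of a type and less RNA per cell cannot be told apart in such shares of summed counts.

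Mural-like cells were named from markers of pericytes and vascular smooth muscle such as Rgs5 and Myh11. WT libraries held 51 and 52 of them and Ikkb_cKO libraries 3, 4 and 21, so no genotype test was made. Of the 40 fibroblast markers, 13 to 15 were at 0 in WT mural-like cells, and the list summed to 6729 and 8340 CPM there. The part of fibroblast RNA in the mural-like values was not tested. Eln stood at 89.5 and 151 CPM in WT mural-like cells (95% Poisson intervals 42.9 to 165 and 92.5 to 234, counting error only) against 568 and 751 CPM in fibroblast-like cells. From the summed WT counts, 30 UMIs in 103 mural-like cells, Eln was 5.42-fold lower in mural-like cells, with a counting interval of 3.79 to 8.03. Lox was the closest of the set, 3.29-fold lower (1.79 to 6.87) on 10 UMIs. Fbn1 was 10.1-fold (6.496 to 16.9) and Mfap2 19.9-fold lower (11.1 to 40.0). Mfap4 had no UMI in WT mural-like cells, which makes it at least 43.2-fold lower there against a floor of 3 UMIs over both libraries, and Fbln2 had none either (at least 21.6-fold). All 10 members were higher in fibroblast-like than in mural-like cells of both WT libraries, as a description without a test, since the classes were made from the same cells.

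In the 21 mural-like cells of Ikkb_cKO library 3, Eln stood at 387 CPM (276 to 527). Of those cells, 11 formed a separate cluster led by Actg2, Mylk and Myh11, genes of smooth muscle contraction, that no other library held. Eln stood at 522 CPM in that cluster (38 UMIs) and at 65.3 CPM in the other 10 cells (2 UMIs).

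Endothelial-like cells carried Fbln5 at 131 and 191 CPM in the WT libraries, beside 141 and 143 in fibroblast-like cells. Fbln2, known from endothelial basement membranes, stood there at 194 and 163 CPM beside 270 and 261 in fibroblast-like cells. Mfap4, Fbln1 and Loxl1 had no UMI in the 69 and 72 WT endothelial-like cells. Schwann-like cells, the glia of skin nerves, carried Mfap5 at 1347 and 910 CPM in WT, beside 1630 and 1624 in fibroblast-like cells. The class held only 25 and 18 WT cells, and 3 fibroblast markers were among its 50 leading genes. The part of fibroblast RNA in its values was not tested. Myeloid-like cells, which are not known to build elastic fibres and are a measure of free RNA, stayed at or below 22.2 CPM for every member in WT, with Mfap5 the highest. In the same test across myeloid-like cells 3 members passed the low-count filter, and they passed it through their WT counts alone. All 3 were called lower in Ikkb_cKO, as 9.53% of 8997 genes were. For members that passed in this way only a fall could be called, so the direction carries no result. Mfap5 went from 22 and 13.5 normalised CPM to 2.69, 0 and 0, Mfap2 from 5.31 and 5.89 to 0, 0 and 0.534, and Fbn1 from 6.45 and 7.62 to 0 in all 3 libraries. Ikkb_cKO libraries also held fewer fibroblast-like cells, and the part of free RNA in these low values was not tested. No member passed the low-count filter in lymphocyte-like cells.

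**Figure D1:**
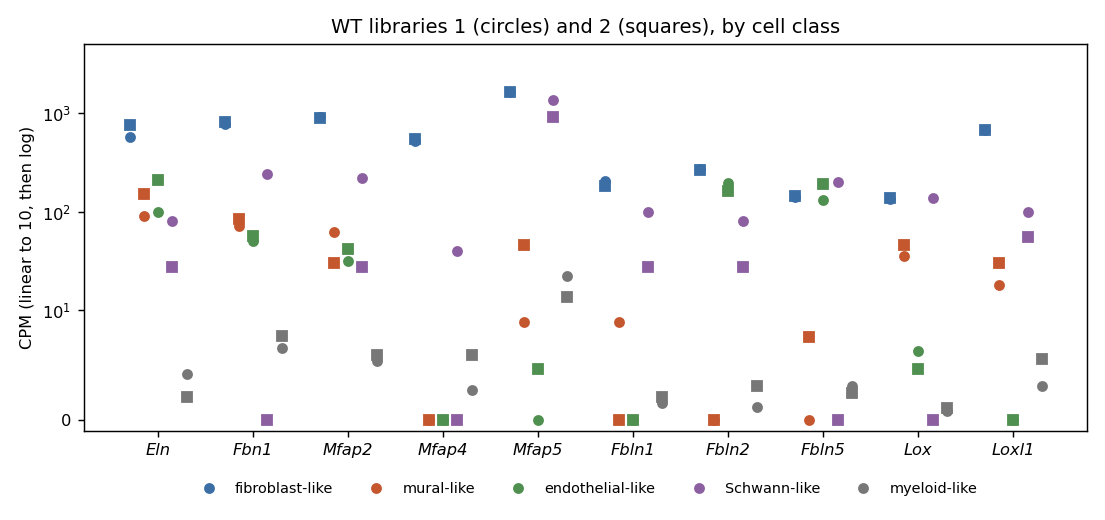
Level of each gene in CPM (vertical axis, linear to 10 and logarithmic above) in 5 cell classes of WT library 1 (circles) and WT library 2 (squares). Fibroblast-like points lie above mural-like points for all 10 genes, endothelial-like points reach the fibroblast-like level for Fbln5, and Schwann-like points come near it for Mfap5.

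Fibroblast-like cells fell into 9 clusters, named here by leading genes. Eln and Mfap4 were among the 2000 variable genes used for clustering, so the differences between clusters are a description. The genotypes filled different clusters. The Crabp1/Cdkn1c, Pi16/Dpp4 and Cited1/Fgf10 clusters held 17.5% and 19.97%, 16.2% and 17.8%, and 13.3% and 13.6% of WT fibroblast-like cells. In Ikkb_cKO the first of these held at most 0.624%, the second at most 0.577% and the last at most 6.54%. The Car4/Il33 cluster held 31.5%, 21.4% and 26.9% of Ikkb_cKO fibroblast-like cells and the Mrgprg/Smpd3 cluster 41.7%, 49.5% and 7.96%, against at most 0.162% in WT. The Coch/Dkk2 cluster held 4.302% and 3.90% in WT, 1.73% and 2.91% in Ikkb_cKO libraries 1 and 2, and 40.6% in library 3.

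In WT, Eln peaked in the Thbs4/Cilp cluster at 1476 and 2418 CPM, above all other clusters in both libraries. The Coch/Dkk2 cluster came next at 609 and 940 CPM, and its range overlapped that of the Crabp1/Cdkn1c cluster (558 and 673), which overlapped that of the Pi16/Dpp4 cluster (567 and 611). The Bpifa2/Ctsk cluster stood at 295 and 311 CPM and the Cited1/Fgf10 cluster was lowest at 126 and 145. When the 10 genes were left out of clustering, the WT mean of Eln was 1835 CPM in Coch/Dkk2 and 1786 in Thbs4/Cilp. The order of the first 2 thus changed with the genes used for clustering. That Coch/Dkk2 cluster held 441 cells, 426 of them from the main Coch/Dkk2 cluster of 516, and the cause of the change was not tested. Mfap4 was high in the same pair of clusters, at 1948 and 2673 CPM in Coch/Dkk2 and 2077 and 2180 in Thbs4/Cilp. Elsewhere in WT its means ran from 381 CPM in Bpifa2/Ctsk down to 39.3 in Pi16/Dpp4.

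Fbn1 and Mfap5, whose products sit together on the microfibril, peaked in another place. In the Pi16/Dpp4 cluster, whose markers are known from interstitial and fascial fibroblasts, WT levels were 1530 and 1629 CPM for Fbn1 and 3422 and 3362 for Mfap5. For Fbn1 the Thbs4/Cilp cluster followed at 1148 and 1120 CPM, and the Fmo2/Inmt cluster was lowest on average at 395 and 383. For Mfap5 the Thbs4/Cilp cluster followed too, at 1918 and 1800 CPM, and the Coch/Dkk2 cluster was lowest at 541 and 645. Mfap2, the other glycoprotein gene, ranked differently: it was highest in Crabp1/Cdkn1c, at 1362 and 1226 CPM, and lowest in Fmo2/Inmt at 531 and 536.

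The lysyl oxidase genes peaked in different clusters. Lox in WT was highest in Thbs4/Cilp at 404 and 399 CPM and lowest in Pi16/Dpp4 at 55.0 and 52.7. Loxl1 was highest in Crabp1/Cdkn1c at 960.3 and 869 CPM, then Pi16/Dpp4 at 757 and 748, and lowest in Coch/Dkk2 at 256 and 224. Over the 14 WT sums of a library and a cluster with at least 20 cells, Pearson's r between Lox and Loxl1 on log2(CPM + 10) was -0.36.

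Among the fibulins, Fbln1 varied most in WT, from means of 497 CPM in Fmo2/Inmt and 458 in Thbs4/Cilp to 19.9 in Cited1/Fgf10. Fbln2 was highest in Thbs4/Cilp (663 and 589 CPM) and Coch/Dkk2 (488 and 694) and lowest in Crabp1/Cdkn1c (128 and 139). Fbln5 was nearly even, with all 14 WT sums between 99.4 and 170 CPM.

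**Figure D2:**
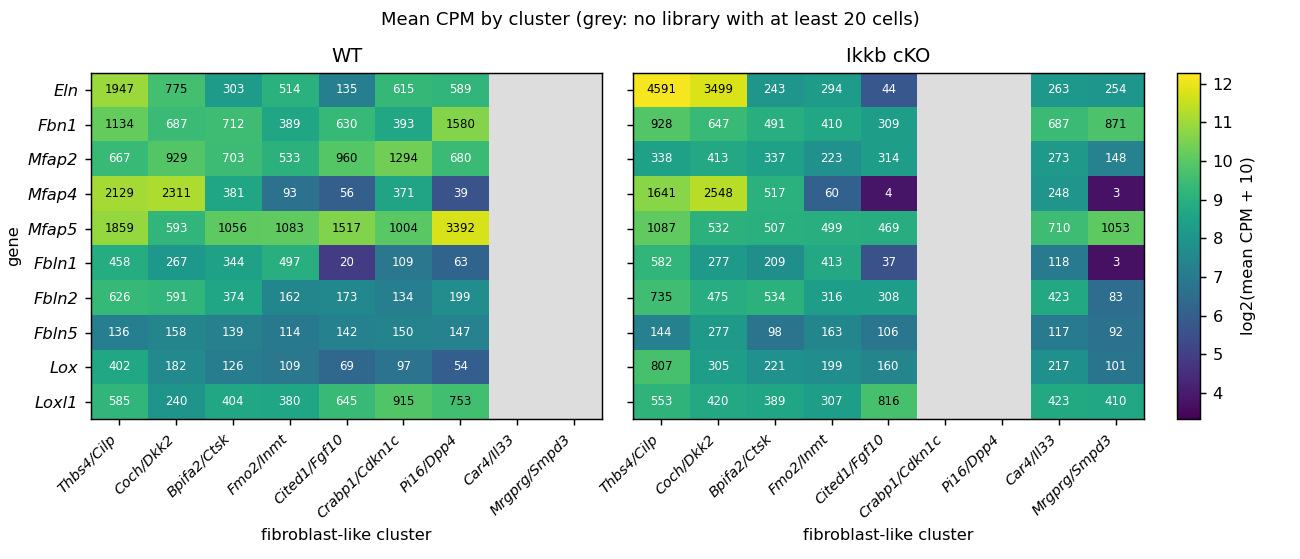
Mean CPM of each gene (rows) in each fibroblast-like cluster (columns), over the libraries with at least 20 cells in the cluster, for WT (left) and Ikkb cKO (right). Colour is log2(mean CPM + 10), the printed value is the mean CPM and grey marks a cluster with no such library. Eln and Mfap4 are high in the 2 left columns, Mfap5 and Fbn1 peak in Pi16/Dpp4 in WT, and Mfap2 is lower in every Ikkb cKO column than in any WT column.

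Across 31 sums of a library and a cluster (14 WT, 17 Ikkb_cKO), which share libraries and depth, the genes most like each member were ranked over 3839 other genes by Pearson's r, as a description. Eln was followed most closely by Cilp (0.82), Angptl1 (0.80) and Pam (0.78), and Mfap4 by Cilp (0.85), Emp1 (0.84) and Pdgfrl (0.82). Cilp also stood second for Lox (0.82), after Sdc4 (0.83) and before Tgfbr3 (0.81). Fbn1 was nearest to Pi16 (0.86), Dpp4 (0.82) and Pcsk6 (0.80), and Mfap5 to Anxa1 (0.91), Igfbp6 (0.83) and Akr1c18 (0.79). Fbln1 was nearest to Dcn (0.89), Tgfbi (0.89) and Apod (0.88), and Fbln2 to Emp1 (0.81), Tgfbi (0.77) and Aspn (0.77). Fbln5 was nearest to Hspa4 (0.76), Rchy1 (0.73) and Col3a1 (0.72), and Loxl1 to Myl6 (0.76), Dbi (0.72) and Slc25a39 (0.72). The genes nearest to Mfap2 were Atp5d (0.92), Ppia (0.89) and Ubb (0.89), which encode an ATP synthase subunit, cyclophilin A and ubiquitin. Between members, the highest r values were those of Mfap4 with Fbln2 (0.76), Fbln2 with Lox (0.75), Eln with Mfap4 (0.73), Mfap4 with Fbln1 (0.73) and Fbn1 with Mfap5 (0.71).

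The genotypes were compared on UMI counts summed per library over all fibroblast-like cells, with edgeR's quasi-likelihood test and Benjamini-Hochberg adjustment over 10398 genes. All 10 members passed the low-count filter. In Ikkb_cKO 1 member rose (Lox) and 3 fell (Mfap2, Mfap5 and Loxl1). Over all genes tested 34.4% were called, 16.8% as higher and 17.6% as lower, so 4 of 10 is near the background share. The median log2 change was -0.17 over the members and 0.04 over all genes. WT and Ikkb_cKO values did not overlap for 5 members, against 60.3% of all genes.

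Mfap2 stood at 946 and 902 normalised CPM in the WT libraries and at 236, 205 and 361 in Ikkb_cKO. The groups were far apart, and the log2 change (Ikkb_cKO over WT) was -1.78 (SE 0.24, adjusted p = 0.00333). Mfap5 stood at 1684 and 1653 in WT and at 789, 958 and 701 in Ikkb_cKO, a log2 change of -1.03 (SE 0.15, adjusted p = 0.00429). Both glycoprotein genes of the microfibril were thus lower in all 3 Ikkb_cKO libraries than in either WT library. The call of Mfap5 was lost without WT library 1 (adjusted p = 0.0531) or WT library 2 (0.0519), which left 1 WT library whose spread was taken from the Ikkb_cKO libraries.

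Fbn1, which encodes the fibrillin that these glycoproteins bind, stood at 799.8 and 819 normalised CPM in WT and at 722, 709.5 and 705 in Ikkb_cKO. The groups did not overlap, but the difference did not pass the test (log2 change -0.18, 95% interval -0.44 to 0.07, adjusted p = 0.219).

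The lysyl oxidases moved in opposite directions. Lox rose from 139 and 138 normalised CPM in WT to 221, 195 and 276 in Ikkb_cKO (log2 change 0.74, SE 0.18, adjusted p = 0.0197). Loxl1 fell from 699 and 675 to 504, 439 and 382 (log2 change -0.64, SE 0.15, adjusted p = 0.0173). Neither pair of groups overlapped. Both calls were lost without WT library 1 (adjusted p = 0.178 for Lox and 0.162 for Loxl1) or WT library 2 (0.182 and 0.133). Lox also missed the threshold with cells thinned to 1000 UMIs (log2 change 0.57, adjusted p = 0.0745), and Loxl1 without Ikkb_cKO library 2 (-0.62, adjusted p = 0.0623).

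Eln and Mfap4 showed no common direction. Eln stood at 587 and 764 normalised CPM in WT and at 412, 729.6 and 1928 in Ikkb_cKO, and its estimate of 0.60 had a 95% interval from -0.98 to 2.19 (adjusted p = 0.497). Mfap4 stood at 536 and 551 in WT and at 146, 190.2 and 1524 in Ikkb_cKO (log2 change 0.20, interval -2.35 to 2.75, adjusted p = 0.897). For both genes libraries 1 and 2 lay at or below WT or within its range, while library 3 lay far above it. Without library 3 the log2 change of Mfap4 was -1.69 with an adjusted p of 5.02e-40 by edgeR. That of Eln was -0.24 (adjusted p = 0.711). Such a fit keeps Ikkb_cKO libraries 1 and 2, whose counts differed by a chi-square of only 1.46 per degree of freedom. Its p-values leave out the spread that library 3 shows, here and in every fit below without library 3.

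The Coch/Dkk2 cluster moved with these values: it supplied 78.4% of the Eln UMIs and 72.2% of the Mfap4 UMIs of fibroblast-like cells in library 3, against 0.728% to 9.73% in the other 4 libraries. Outside that cluster Eln stood at 567 and 747 CPM in WT and at 422, 755 and 715 in Ikkb_cKO (log2 change -0.08, adjusted p = 0.822). Mfap4 outside it stood at 488 and 498 in WT and at 138, 187 and 726 in Ikkb_cKO (log2 change -0.48, adjusted p = 0.577). The 4 called members were also called outside that cluster, Mfap2 at -1.87, Mfap5 at -0.94, Loxl1 at -0.67 and Lox at 0.72. This comparison was chosen after seeing the data, and the cluster had been made in part from Eln and Mfap4 themselves.

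The fibulins had the same split between libraries. Fbln1 stood at 209 and 183 normalised CPM in WT and at 120.1, 92.3 and 240.1 in Ikkb_cKO (log2 change -0.36, adjusted p = 0.51). Fbln2 stood at 279 and 266 in WT and at 258, 198 and 565 in Ikkb_cKO (0.33, adjusted p = 0.597). Fbln5 was at 146 in both WT libraries and at 82.1, 93.3 and 211 in Ikkb_cKO (-0.16, adjusted p = 0.791). In each case libraries 1 and 2 were below both WT values and library 3 was above them. Without library 3, Fbln1 (-0.89), Fbln2 (-0.26) and Fbln5 (-0.73) were called lower. Their adjusted p-values of 7.74e-13, 0.0127 and 7.21e-09 by edgeR leave out the spread of library 3 too.

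**Figure D3:**
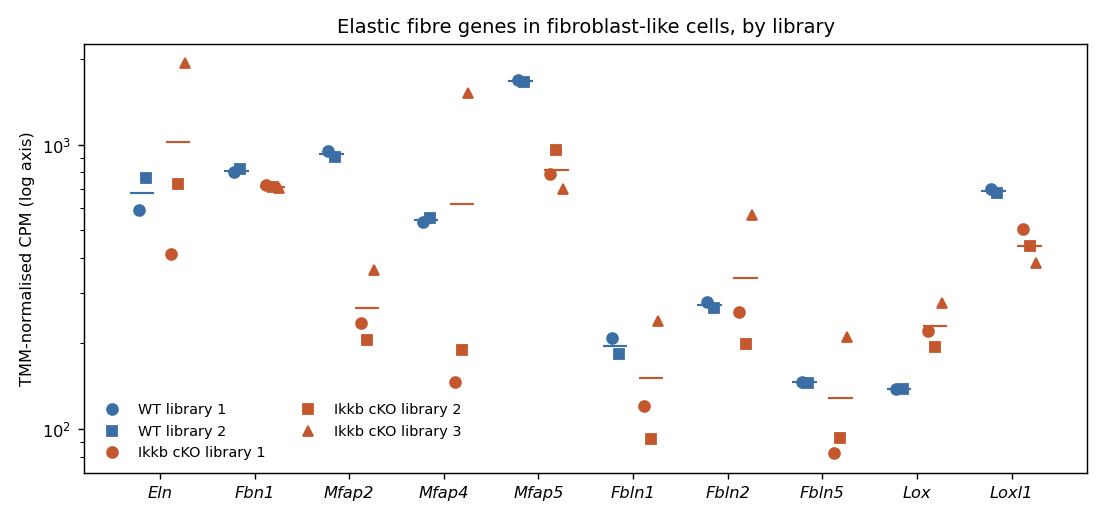
Normalised CPM (logarithmic axis) of each gene in fibroblast-like cells, with a marker for each of the 2 WT and 3 Ikkb cKO libraries and a line at each group's mean. Mfap2, Mfap5 and Loxl1 are lower and Lox is higher in all Ikkb cKO libraries than in WT, and library 3 (triangles) lies above libraries 1 and 2 for Eln, Mfap4 and the 3 fibulins.

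Depth per cell differed between the genotypes, so the share of cells with at least 1 UMI was also read in cells thinned to 1000 UMIs. Cells with fewer than 1000 UMIs were left out, so thinned values cover a subset that differs between libraries. In Bpifa2/Ctsk, for example, median depth was 992 UMIs in Ikkb_cKO library 1 and 2791 in WT library 1. In the thinned cells Mfap2 was detected in 50.5% and 50.1% of WT and in 18.9%, 17.5% and 23.6% of Ikkb_cKO fibroblast-like cells. The unthinned shares were 80.9% and 84.0% against 28.8%, 28.1% and 46.6%. In WT myeloid-like cells, taken as free RNA, at most 1.47% had an Mfap2 UMI without thinning, at median depths of 2559 and 2691 UMIs. The thinned fit gave Mfap2 a log2 change of -1.76 (adjusted p = 0.000399). Atp5d, Ppia and Ubb, the genes nearest to Mfap2 in pattern, fell by 1.199, 1.43 and 1.71 on the log2 scale (adjusted p = 0.00191, 0.00283 and 0.00138). The part of RNA quality or cell state in the fall of Mfap2 was not tested.

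Markers of other cells also differed. In fibroblast-like cells the 19 endothelial markers summed to 1867 to 2245 CPM in WT and 162 to 784 in Ikkb_cKO, and the 8 adipocyte markers to 1842 to 2341 and 70.3 to 786. Fabp4 is on both lists, and it was also the first gene of the fibroblast-like Cited1/Fgf10 cluster by fold over the median cluster. It stood at 2191 and 1802 CPM in WT and at 749, 461 and 64.1 in Ikkb_cKO. It made up most of both sums except the endothelial sum of Ikkb_cKO library 3, which was 162 CPM and also held Aqp1 at 45.6 and Flt1 at 35.4 CPM. The endothelial gene Pecam1 was at most 1.57 CPM and the adipocyte gene Adipoq at most 6.71 CPM in any library. The 17 mural markers summed to 619 to 662 CPM in WT and 234 to 579 in Ikkb_cKO. The part of such cells in the members' values was not tested.

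Because the genotypes filled different clusters, effects were also tested inside clusters. The Thbs4/Cilp cluster (257 and 280 WT cells, 38, 47 and 31 Ikkb_cKO cells) and the Bpifa2/Ctsk cluster (418 and 374, and 43, 32 and 152) had at least 20 cells in every library.

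In the Thbs4/Cilp cluster, one of the pair with the highest Eln in WT, elastin rose in Ikkb_cKO. Eln stood at 1827 and 2989 normalised CPM in WT and at 3083, 6917 and 6709.8 in Ikkb_cKO (log2 change 1.21, SE 0.38, adjusted p = 0.0427). The lowest Ikkb_cKO library was just above the higher WT library, and the call was lost without Ikkb_cKO library 2 (0.90, adjusted p = 0.315). Lox rose with it, from 501 and 493 to 887, 1171 and 891 (0.99, SE 0.17, adjusted p = 0.0025). Without WT library 1 or 2 the adjusted p of Lox was 0.0667 or 0.0706. Mfap2 fell from 829 and 822 to 406, 354 and 472 (-1, SE 0.17, adjusted p = 0.00244), and Mfap5 from 2376 and 2224 to 1248, 1391 and 1331 (-0.80, SE 0.16, adjusted p = 0.0041). These 4 of 10 members, 2 higher and 2 lower, compare with 38.1% of the 1745 genes tested in that cluster, 20.2% higher and 17.9% lower. Groups did not overlap for 6 members and for 57.8% of genes. Loxl1 differed little there, at 723 and 724 in WT and 722, 634 and 666 in Ikkb_cKO (-0.11, 95% interval -0.45 to 0.24, adjusted p = 0.613). Mfap4 stood at 2572 and 2695 in WT and 1399, 1805 and 2759 in Ikkb_cKO (-0.40, adjusted p = 0.217). Mfap4 was called lower in 5 of 11 alternatives. With all libraries kept, these included the members left out of clustering (-0.65, adjusted p = 0.0261), a filter of 10 CPM (-0.57, adjusted p = 0.0169) and no low-count filter (-0.71, adjusted p = 0.00139). Fbn1 was called lower with no low-count filter (-0.63, adjusted p = 0.012). Without Ikkb_cKO library 3 both were called lower, at -0.80 and -0.60 (adjusted p = 1.24e-06 and 0.00237).

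In the Bpifa2/Ctsk cluster Mfap2, Mfap5 and Fbln1 fell and Lox rose, 4 of 10 members against 19.4% of 4978 genes (8.8% higher and 10.6% lower). Groups did not overlap for 5 members and for 40% of genes. Mfap2 fell from 754 and 884 normalised CPM to 227, 424 and 363 (-1.25, SE 0.24, adjusted p = 0.00125). Mfap5 fell from 1265 and 1193 to 489.8, 363 and 684 (-1.15, SE 0.23, adjusted p = 0.00174). Fbln1 fell from 406 and 396 to 262, 161 and 203 (-0.95, SE 0.23, adjusted p = 0.00698), and Lox rose from 144 and 148 to 157, 262 and 246 (0.68, SE 0.20, adjusted p = 0.0236). Eln had no common direction here, at 342 and 364 in WT and 140.0, 121 and 486 in Ikkb_cKO (-0.05, adjusted p = 0.934). Without Ikkb_cKO library 3, Eln (-1.57), Fbn1 (-1.22) and Mfap4 (-1.19) were called lower, with adjusted p-values of 0.000895, 0.000249 and 0.0041. By DESeq2's Wald test Fbln1 and Lox missed the threshold in this cluster (adjusted p = 0.0585 and 0.324). Lox passed it in 3 of 11 alternatives, and its adjusted p without WT library 1 or 2, or without Ikkb_cKO library 2 or 3, ran from 0.0511 to 0.706. Without WT library 1 or 2, Fbln1 missed it at 0.295 and 0.285. Mfap2 missed it without WT library 2 (0.116), and Mfap5 without WT library 1 (0.0552).

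The effect itself differed between the 2 clusters for 2 members, by a test of the genotype-by-cluster term with library as a block, in which 0.904% of 4423 genes were called. The effect on Eln was lower in Bpifa2/Ctsk than in Thbs4/Cilp by a log2 difference of -1.41 (SE 0.33, adjusted p = 0.0354), and that on Fbln1 by -1.24 (SE 0.24, adjusted p = 0.00706). Both calls were lost without WT library 1 or WT library 2 (adjusted p from 0.162 to 1.0), that of Fbln1 without Ikkb_cKO library 3 (0.102), and that of Eln when the 10 genes were left out of clustering (-1.16, adjusted p = 0.381). For Mfap4 the difference of 0.82 (SE 0.33, adjusted p = 0.427) was called without Ikkb_cKO library 1 (1.07) or 2 (1.23) and was -0.33 without library 3. For Mfap2, Mfap5 and Lox the differences of -0.20 (SE 0.28), -0.28 (SE 0.25) and -0.15 (SE 0.23) did not pass, which does not show that the effects were alike.

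The Fmo2/Inmt cluster, with 11, 21 and 20 Ikkb_cKO cells, was added at a lower minimum of 10 cells, and 8 members passed its low-count filter. Mfap2 (-1.14, SE 0.30, adjusted p = 0.0253) and Mfap5 (-1.08, SE 0.21, adjusted p = 0.0101) fell. Lox (0.99, SE 0.29, adjusted p = 0.0347) and Fbln2 (1.09, SE 0.28, adjusted p = 0.0239) rose. Over all 902 genes tested there 26.5% were called, 14.3% higher and 12.2% lower. Groups did not overlap for 5 members and for 52.4% of genes. Eln stood at 727 and 633 normalised CPM in WT and at 467, 288 and 522 in Ikkb_cKO, with no overlap, but did not pass the test (-0.68, SE 0.26, adjusted p = 0.0865).

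**Figure D4:**
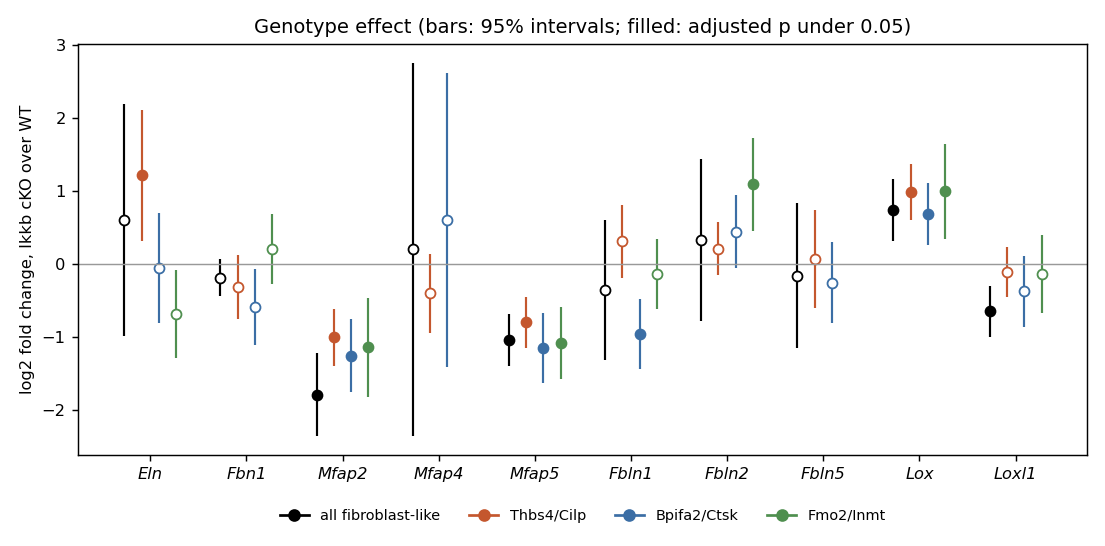
Log2 fold change of Ikkb cKO over WT (vertical axis) with its 95% interval, for all fibroblast-like cells and for the Thbs4/Cilp, Bpifa2/Ctsk and Fmo2/Inmt clusters. Filled points passed an adjusted p of 0.05, as Mfap2, Mfap5 and Lox did in all 4 fits, Eln in Thbs4/Cilp alone and Loxl1 in all fibroblast-like cells alone; Mfap4 and Fbln5 were not tested in Fmo2/Inmt.

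By cluster, Mfap2 was the 1 member whose levels did not overlap between the genotypes over all sums. The share of all genes that separate in this way was not counted. The sums also come from only 5 libraries and are not independent. The 17 Ikkb_cKO sums of a library and a cluster had Mfap2 levels from 139 to 432 CPM, with a median of 300.4, and the 14 WT sums from 531 to 1362, with a median of 720.3. No Ikkb_cKO sum of at least 20 cells in any cluster reached the lowest WT sum. The Mrgprg/Smpd3 cluster of Ikkb_cKO was the lowest on average, at 161, 143 and 141 CPM. For Mfap5, 7 of 17 Ikkb_cKO sums lay below the lowest WT sum, and for Lox none did.

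Ikkb_cKO libraries had few cells of the clusters with the highest WT levels of some genes. For Loxl1, the WT peak clusters Crabp1/Cdkn1c and Pi16/Dpp4 held at most 3 cells in an Ikkb_cKO library. The Car4/Il33 and Mrgprg/Smpd3 clusters, where most cells of Ikkb_cKO libraries 1 and 2 lay, had Loxl1 at means of 423 and 410 CPM. Mfap5 had its WT peak of 3392 CPM on average in Pi16/Dpp4, while Car4/Il33 and Mrgprg/Smpd3 had 710 and 1053. The part of this shift between clusters in the changes of the whole class was not tested beyond the fits within clusters.

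The Mrgprg/Smpd3 cluster was low in several members. Fbln1 was at 1.76 to 5.21 CPM there and Mfap4 had no UMI in libraries 1 and 2 and stood at 10.4 CPM in library 3. Eln was even over the 3 libraries, at 221, 269 and 271 CPM. Fbn1 was kept at a mean of 871 CPM, close to its 928 CPM in the Thbs4/Cilp cluster of the same libraries. The Cited1/Fgf10 cluster of Ikkb_cKO was low too. Its means over 2 libraries were 4.06 CPM for Mfap4, 44.1 for Eln and 37.3 for Fbln1.

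**Figure D5:**
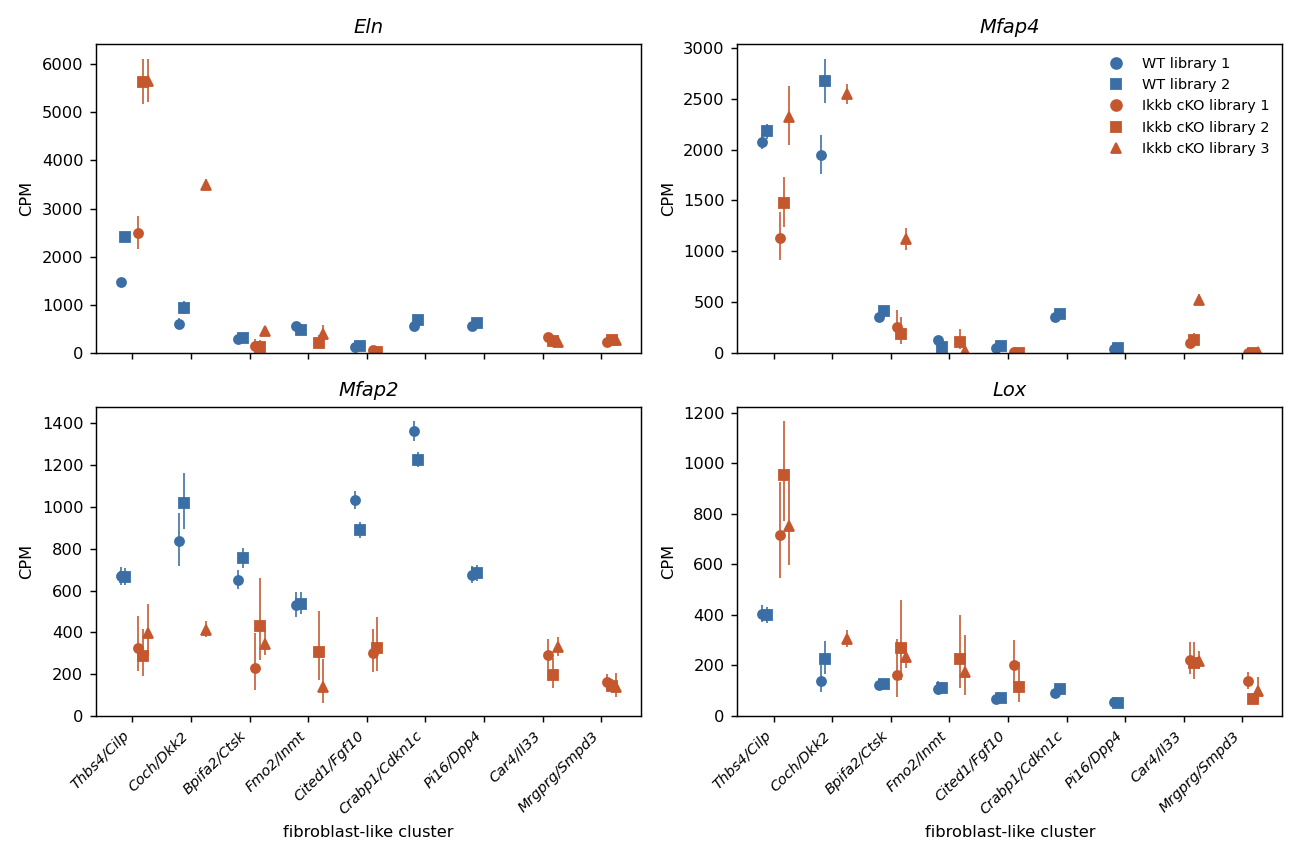
CPM of Eln, Mfap4, Mfap2 and Lox (vertical axes from 0) in each fibroblast-like cluster, for every library with at least 20 cells there, with 95% Poisson intervals of the counts. Eln is highest in Thbs4/Cilp for Ikkb cKO, with library 3 also high in Coch/Dkk2, and all Mfap2 points of Ikkb cKO lie below all those of WT.

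Other genes of elastic fibre assembly were read from lists, in the fit over all fibroblast-like cells, where 16.8% of genes were called higher and 17.6% lower. Of 23 tested partners of microfibrils and elastic fibres, 3 fell and 2 rose. Efemp2, for fibulin-4, which brings lysyl oxidase to tropoelastin, fell from 334 and 315 normalised CPM in WT to 127, 123 and 82.1 (log2 change -1.57, SE 0.20, adjusted p = 0.00314). Emilin1, a glycoprotein at the edge of the elastin core, fell by 1.18 (SE 0.20, adjusted p = 0.00683), and Tnxb, the tenascin of loose connective tissue, by 0.71 (SE 0.17, adjusted p = 0.0197). Ltbp2, a fibrillin-binding protein, rose by 3.11 (SE 0.73, adjusted p = 0.0204) from low levels of 1.28 and 1.08 to 6.01, 1.83 and 17.5.

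Of 11 tested genes of cross-linking and lysyl oxidase maturation, 4 rose and 1 fell. Bmp1, the protease that activates pro-lysyl oxidase, rose from 237 and 229 normalised CPM to 407, 418 and 343 (0.74, SE 0.14, adjusted p = 0.00951). Its enhancer Pcolce, which acts in collagen processing and was itself among the fibroblast markers, fell from 1421 and 1164 to 481, 487 and 359.7 (-1.55, SE 0.17, adjusted p = 0.00244). The lysyl oxidase relatives Loxl2 (0.60, SE 0.12, adjusted p = 0.0109) and Loxl4 (1.10, SE 0.29, adjusted p = 0.0276) rose, the latter from 3.41 and 3.32 to 6.01, 6.40 and 8.37.

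Of 6 tested proteases able to cut elastin, only Ctsl passed, falling by 0.62 (SE 0.12, adjusted p = 0.00948). Among 8 tested protease inhibitors, 2 rose and 2 fell. Timp3, a matrix-bound inhibitor of metalloproteases, rose from 283 and 262 normalised CPM to 481, 540.4 and 460.2 (0.85, SE 0.13, adjusted p = 0.0053). Timp1, its soluble relative, fell from 549.7 and 565 to 298, 180.1 and 229.7 (-1.24, SE 0.21, adjusted p = 0.00626). Serpina3n rose by 1.19 (SE 0.30, adjusted p = 0.0253) and Cst3, an inhibitor of cysteine cathepsins, fell by 0.55 (SE 0.11, adjusted p = 0.0113).

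Of 18 tested genes of TGF-beta signalling, a pathway known to raise Eln and Lox, 5 rose and 1 fell. The receptor gene Tgfbr2 rose from 209 and 222 normalised CPM to 373, 381 and 419 (0.86, SE 0.13, adjusted p = 0.00458). Smad4, the shared transcription factor, rose by 0.99 (SE 0.14, adjusted p = 0.00429), Smad3 fell by 1.04 (SE 0.21, adjusted p = 0.0116) and the repressor Ski rose by 1.05 (SE 0.24, adjusted p = 0.0164). Of 12 tested receptors for elastin and microfibrils, 2 rose and 2 fell: the integrin genes Itga5 (0.72, SE 0.14, adjusted p = 0.0111) and Itga11 (1.60, SE 0.34, adjusted p = 0.014) rose. Ctsa (-0.80, SE 0.16, adjusted p = 0.0103) and Rpsa (-0.77, SE 0.11, adjusted p = 0.004) fell. Ctsa was listed for the elastin-binding complex, while Rpsa encodes a ribosomal protein with many copies in the genome. The share of calls in these lists is a description beside the background.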

How the data were processed

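The deposited files held UMI counts per gene and cell barcode for 5 libraries of droplet 3′ single-cell RNA-seq, with no normalisation by the authors. Cell Ranger 1.3.0 and mm10 are named in the submitters' processing notes, and the file headers give matrix software version 3.0.1. Members were taken by symbol. The members and lists were chosen with earlier results of these data known.

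A cell was kept from 300 detected genes upwards if mitochondrial UMIs made up no more than 10% (10611 of 11084). Scrublet's own threshold marked 25 doublets, so the 221 cells (2.08%) with the highest scores per library, as many as the expected doublet rate gives, were removed instead. Clustering used scanpy 1.11.5 (2000 variable genes, 30 components, 15 neighbours, Leiden resolution 1.0) and gave 31 clusters. A cluster was named for a class if at least 3 of the class's markers were among its 50 leading genes, 2 more than for the next class. A Myog-led cluster of 140 cells stayed unnamed.

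Counts were summed per library over a class, or over a cluster with at least 20 cells in each library, and tested with edgeR 4.0.16 (filterByExpr, TMM, robust quasi-likelihood, Benjamini-Hochberg, 0.05), without a replicate block. Genotype values are TMM-normalised CPM, and levels by class or cluster are plain CPM. Intervals are exact 95% Poisson intervals and cover counting error only. With 2 against 3 libraries the smallest exact permutation p is 0.1, so no permutation test was made. DESeq2 1.42.0 was an alternative. The method was tested on simulated data.

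Named list genes were the 4 with the smallest adjusted p in each list, and the genes most like a member were the 3 with the highest Pearson's r. Alternatives chosen after seeing the data were a minimum of 10 cells, members left out of clustering for the cluster fits, Ikkb_cKO libraries 1 and 2 summed, cells outside the Coch/Dkk2 cluster, and all alternatives of the genotype-by-cluster test. Gene positions came from GENCODE annotation of GRCm38, and promoters from RefSeq.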

Additional observations from a re-analysis of the deposited data

Results flagged for a closer look

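The genotype effect on Eln differed between clusters by a test of the difference itself: it was lower in the Bpifa2/Ctsk cluster than in the Thbs4/Cilp cluster by -1.41 on the log2 scale (SE 0.33, edgeR adjusted p = 0.0354). The effect on Fbln1 differed in the same way, by -1.24 (SE 0.24, adjusted p = 0.00706). Both calls were lost without either WT library.

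Eln was also higher in all Ikkb_cKO libraries than in both WT libraries in the Thbs4/Cilp cluster (log2 change 1.21). It was lower in all of them in the Fmo2/Inmt cluster (-0.68). Such separation held for 57.8% of all genes tested in the first cluster and 52.4% in the second. By edgeR the rise was called (adjusted p = 0.0427), but not without Ikkb_cKO library 2 (0.315). The fall did not pass (0.0865). The difference between these 2 clusters was not tested.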

How the results depend on the processing

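In fibroblast-like cells Mfap2 was called lower in 20 of 20 alternatives. The 3582 genes called there became 349 (without WT library 2) to 5602 (without Ikkb_cKO library 3) with 1 library left out and 2020 with cells thinned to 1000 UMIs. The 664 calls in the Thbs4/Cilp cluster became 263 to 788 with 1 library left out, 1088 with no low-count filter and 1054 at 10 CPM in at least 2 libraries. The 966 calls in the Bpifa2/Ctsk cluster became 121 to 841 with 1 library left out and 221 by DESeq2's Wald test. The 40 calls of the genotype-by-cluster test became 2 to 67 with 1 library left out and 21 with the members left out of clustering.

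Replicate numbers did not pair the samples: same-numbered WT and Ikkb_cKO libraries deviated from their group means with r of 0.036 and -0.034. A replicate block, which drops the unpaired Ikkb_cKO library 3 from the contrast, gave 5265 calls in fibroblast-like cells, 644 in Thbs4/Cilp and 310 in Bpifa2/Ctsk. With the block, members not called before were called lower: in fibroblast-like cells Eln (-0.27, adjusted p = 0.0146), Mfap4 (-1.69), Fbln2 (-0.27), Fbln1 (-0.89) and Fbln5 (-0.73), in Thbs4/Cilp Fbn1 (-0.50) and Mfap4 (-0.72), and in Bpifa2/Ctsk Eln (-1.43), Fbn1 (-1.09) and Mfap4 (-1.04). In Bpifa2/Ctsk the calls of Fbln1 (adjusted p = 0.11) and Lox (0.565) were lost with it. No other member's call changed with the block.

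With 1 library left out, log2 changes in fibroblast-like cells ran from -0.24 to 1.00 for Eln, -1.69 to 0.68 for Mfap4, -0.26 to 0.62 for Fbln2 and -0.73 to 0.095 for Fbln5. Likewise they ran from -0.30 to 0.20 for Fbln5 in Thbs4/Cilp, and in Bpifa2/Ctsk from -1.57 to 0.14 for Eln, -1.19 to 0.90 for Mfap4 and -0.13 to 0.56 for Fbln2. The differences between the clusters ran from -0.33 to 1.23 for Mfap4 and -0.16 to 0.44 for Fbln2. Other reversals in fibroblast-like cells were Mfap4 at -0.0045 with thinned cells, Eln at -0.079 and Mfap4 at -0.48 outside the Coch/Dkk2 cluster, and Fbln5 at 0.058 with Ikkb_cKO libraries 1 and 2 summed. In Thbs4/Cilp they were Fbln1 at -0.014, Fbln2 at -0.11 and Fbln5 at -0.25 with no low-count filter, and Fbln5 at -0.098 at 10 CPM. With the members left out of clustering, Eln in Bpifa2/Ctsk was 0.42, and the differences for Mfap2 and Lox were 0.037 and 0.033. The cause was not tested. Depth limits the Ikkb_cKO cluster sums, which rest on as few as 31 cells in Thbs4/Cilp, 32 in Bpifa2/Ctsk and 11 in Fmo2/Inmt. In Bpifa2/Ctsk the median depth was only 992 and 1189 UMIs per cell in Ikkb_cKO libraries 1 and 2.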
